A study of Mus musculus with 8 samples.

Results

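The endothelial cells that line the liver sinusoids were followed in whole-liver RNA through 10 marker genes, Stab1, Stab2, Lyve1, Clec4g, Kdr, Pecam1, Oit3, Fcgr2b, Dnase1l3 and Bmp2. The genes were taken by symbol as known markers of these cells, with earlier results of these data known when they were chosen. All 10 were among the 41388 features counted in every library, and all 10 were among the 12270 genes that passed the filter on low counts (over 1 CPM in at least 3 libraries, where CPM is a gene's reads scaled to the sequencing depth of its library). Livers came from 8 male db/db mice on the C57B/6J background, which lack a working leptin receptor and become obese and diabetic, so obesity and diabetes were shared by both groups. Littermates were randomised at 5 weeks of age and received, by tail vein, an adenovirus encoding green fluorescent protein (AdGFP, 4 mice) or the NAD salvage enzyme NAMPT (AdNAMPT, 4 mice); they were 10 weeks old at sampling. No cell-type-restricted promoter is described for the adenovirus, and both groups carried a vector, so an effect of the adenovirus itself was not measured. Cells were not sorted: a lower level of a marker in whole liver may reflect fewer endothelial cells or less RNA per cell, which cannot be told apart.

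Liver sinusoidal endothelial cells form a fenestrated wall without a continuous basement membrane, through which plasma reaches hepatocytes. They are among the most active scavenger cells of the body. Stabilin-1 and stabilin-2 (Stab1, Stab2), LYVE-1 (Lyve1) and the inhibitory IgG receptor FcγRIIb (Fcgr2b) are among their receptors. Through such receptors they take up hyaluronan, denatured collagen, modified lipoproteins and small immune complexes. These cells carry the lectin LSECtin (Clec4g) as well. They also signal to neighbouring cells: VEGF acts on them through VEGFR2 (Kdr), and they secrete BMP2 (Bmp2), which drives hepcidin synthesis in hepatocytes. Loss of this phenotype, called capillarisation, is a known feature of chronic liver injury.

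Total counts were between 12006713 and 19879814 per library, so that 3 counts corresponded to 0.151 to 0.25 CPM, and each member was counted with 125 to 1561 reads in every library. Counting noise alone would give a chi-square per degree of freedom of about 1 between replicates of a group; values of 11.3 to 81.8 were found, and all 8 libraries were used as different mice. Nampt, the transferred gene, had 102, 137, 153 and 142 CPM in AdGFP against 149, 120, 178 and 168 CPM in AdNAMPT; here and throughout, values are listed from replicate 1 to replicate 4. The groups overlapped and differed by a log2 fold change of 0.078 ± 0.15 (SE; limma, adjusted p = 0.915), so the label of the second group was not borne out by Nampt reads, and every direction given here is for the libraries labelled AdNAMPT. AdNAMPT replicate 1 stood apart from the other libraries on the first principal component (score of -31.7, others between -2.64 and 11.1; 42.9% of variance) and received a sample weight of 0.440. AdGFP replicate 2 held the highest share of ribosomal RNA, 2.63% of counts, against 0.863% to 1.88% elsewhere.

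RefSeq promoter windows on GRCm38.p6, running from 250 bases before to 50 bases after the annotated start, were found for 5 of the 10 members (Stab1, Stab2, Clec4g, Kdr and Fcgr2b). Those of Stab1 and Stab2 are shown because these related stabilins had the smallest and the largest unadjusted p of the members, and that of Clec4g because it had the highest level per length. Capitals mark GGAAG, the core bound by ETS factors, a family that includes the endothelial regulators ERG and FLI1, on either strand (CTTCC is the same core on the other strand), and in Clec4g also TATAAA on the other strand (TTTATA). All 3 windows are on the minus strand and are written 5′ to 3′ in the direction of transcription, Stab1 from chr14:31168592-31168891, Stab2 from chr10:87007893-87008192 and Clec4g from chr8:3720602-3720901.
Stab1: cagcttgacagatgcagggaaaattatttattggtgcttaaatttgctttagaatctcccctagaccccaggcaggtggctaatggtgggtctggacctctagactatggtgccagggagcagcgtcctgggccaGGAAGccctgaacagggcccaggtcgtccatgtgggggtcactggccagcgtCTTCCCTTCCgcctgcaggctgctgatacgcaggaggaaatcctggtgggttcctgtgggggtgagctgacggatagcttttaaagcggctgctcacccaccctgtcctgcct
Stab2: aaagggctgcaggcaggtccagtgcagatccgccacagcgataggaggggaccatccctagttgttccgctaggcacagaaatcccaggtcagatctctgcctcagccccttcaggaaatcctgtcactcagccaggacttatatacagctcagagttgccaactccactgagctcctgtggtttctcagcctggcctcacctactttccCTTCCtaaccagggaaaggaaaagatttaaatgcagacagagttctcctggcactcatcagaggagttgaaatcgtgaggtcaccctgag
Clec4g: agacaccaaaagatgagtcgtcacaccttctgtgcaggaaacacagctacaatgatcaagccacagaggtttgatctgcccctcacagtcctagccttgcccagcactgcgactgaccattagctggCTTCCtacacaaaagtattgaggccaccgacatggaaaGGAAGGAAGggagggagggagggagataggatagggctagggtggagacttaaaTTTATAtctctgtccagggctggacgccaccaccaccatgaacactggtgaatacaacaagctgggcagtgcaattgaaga
The core was present in 5 of the 5 member windows, but also in 71.4% of the 32851 windows of all genes. Stab1 held it at -115, -63 and -58 from the start, Clec4g at -123, -85 and -81, where the latter pair shares 1 G, and Stab2 at -40 alone. Kdr had a single match at -216 and Fcgr2b had matches at -72, -30 and 31. The GATA-type motif AGATAA (11.2% of windows) and the SOX-type motif ACAAAG (18.7% of windows), each searched on both strands, were in 0 of the 5 member windows, and TATAAA (13.6% of windows) was found only in that of Clec4g among the 5, at -31. These matches describe letters in the windows and were not tested for binding.

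Levels were first compared between the members on the RPKM scale, which divides CPM by exonic length. Clec4g was the highest, at 20.3 ± 2.47 RPKM (mean ± SD, n = 8 libraries of both groups), and its range of 15.8 to 23.4 RPKM did not reach that of any other member. Oit3, which encodes a secreted zona pellucida domain protein, followed at 10.4 ± 1.39 RPKM, and Stab2 at 10.0 ± 0.962 RPKM. Next in order were Fcgr2b (8.17 RPKM), Kdr (6.76 RPKM), Lyve1 (6.73 RPKM), Stab1 (5.73 RPKM), Dnase1l3 (5.70 RPKM), Pecam1 (3.37 RPKM) and Bmp2 (2.65 RPKM). Below Clec4g, the order was not fixed by these libraries: in 8 of the 9 neighbouring pairs the ranges over libraries overlapped, and Kdr exceeded Lyve1 in 4 of 8 libraries and Stab1 exceeded Dnase1l3 in 3 of 8. Stab2 exceeded Fcgr2b, Dnase1l3 exceeded Pecam1 and Pecam1 exceeded Bmp2 in 8 of 8 libraries although their ranges overlapped. All 10 genes were thus detected in each of the 8 livers; several of them are shared with other endothelium or with macrophages.

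AdNAMPT and AdGFP livers were then compared to ask whether the sinusoidal endothelial programme differed after NAMPT delivery. The test in limma, with p-values adjusted by the Benjamini-Hochberg method and a threshold of 0.05, called 0 of the 10 members, against 0.277% of all tested genes (0.0163% were higher and 0.261% lower in the AdNAMPT group). With an unadjusted p under 0.05, 1 member (Stab1, higher) was reached, against 9.69% of tested genes (4.65% higher and 5.04% lower); edgeR's quasi-likelihood test and DESeq2 also gave 0 members at the adjusted threshold. Log2 fold changes of the members, AdNAMPT over AdGFP on the TMM scale, lay between -0.12 and 0.34 with a median of 0.075, whereas the median over all tested genes was 0.0015. Their median absolute log2 fold change was 0.10, against 0.11 over all tested genes. Adjusted p-values of the members ranged from 0.492 to 0.986 (limma). For 9 of the 10 members both bounds of the 95% confidence interval lay within 1.5-fold of no difference; the exception was Lyve1, whose upper bound was 1.82-fold.

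**Figure D1:**
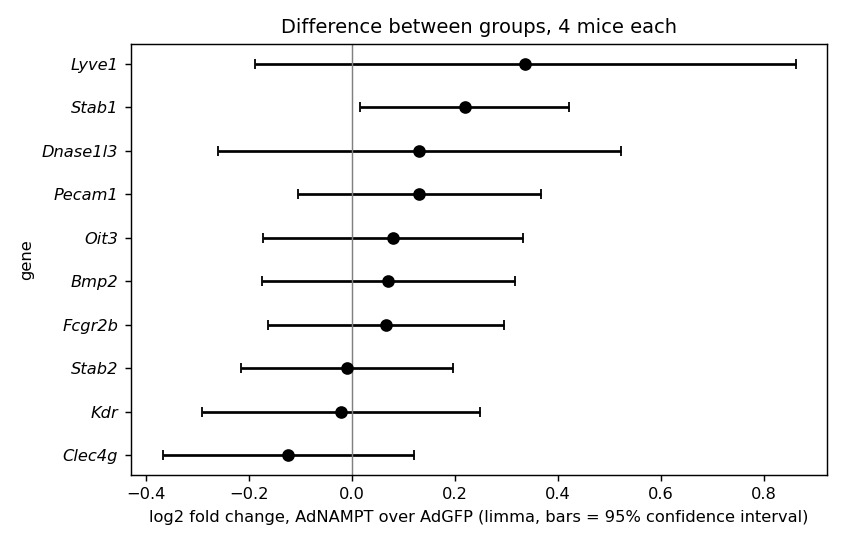
Log2 fold change of each member, AdNAMPT over AdGFP, from limma on TMM-scaled counts (x axis; 4 mice a group, genes on the y axis), with bars for the 95% confidence interval. The interval of Stab1 alone lies wholly above 0, and that of Lyve1 is the widest.

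The count of directions depended on scaling and on which mice were included. On the TMM scale 7 members were higher in AdNAMPT and 3 (Stab2, Clec4g and Kdr) were lower, against 50.4% of all tested genes higher. Scaling by library size only put 9 members higher and 1 lower, with a median of 0.16, and put 71.8% of all tested genes higher, with a median over all genes of 0.086. Without AdNAMPT replicate 2, 3 members were higher and 7 lower, and the median became -0.042. It was 6 higher and 4 lower without AdGFP replicate 3, and 9 higher and 1 lower without AdGFP replicate 4, AdNAMPT replicate 3 or AdNAMPT replicate 4. Without AdNAMPT replicate 1, the library that stood apart, 7 were higher and 3 lower, the median was 0.059 and again 0 members passed the adjusted threshold. No member separated the groups: 0 of 10 had groups that did not overlap on TMM-scaled CPM, against 4.79% of tested genes (2.09% higher, 2.70% lower), and 0 of 10 on deposited CPM, against 8.22% (7.36% higher, 0.856% lower).

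**Figure D2:**
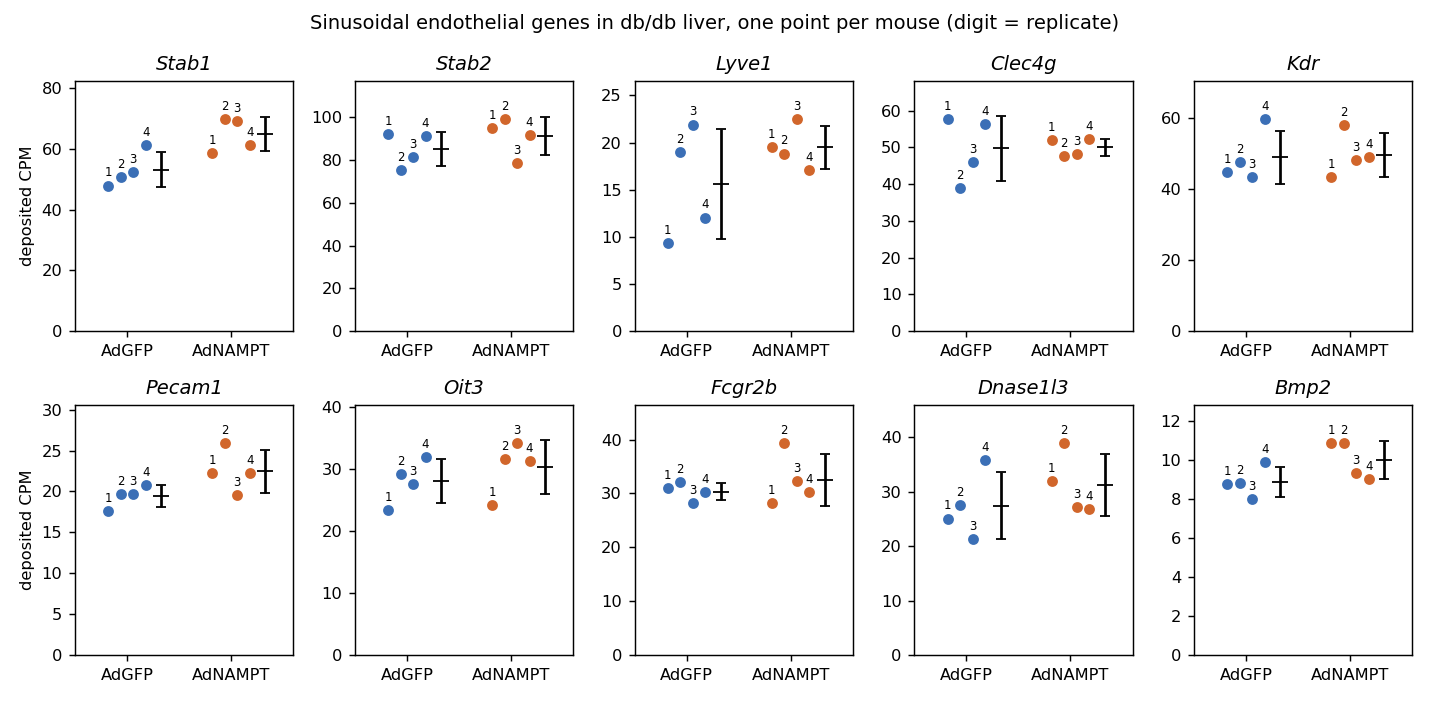
Deposited CPM of each member (y axis, from 0) by group (x axis), with 1 point per mouse numbered by replicate and the mean and SD of 4 mice drawn beside the points. The groups overlap in each of the 10 panels, and AdGFP replicates 1 and 4 lie apart from replicates 2 and 3 for Lyve1.

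Stab1 showed the smallest p of the 10 members. Stab1 (ENSMUSG00000042286, chr14:31139013-31168641, GRCm38), a clearance receptor shared with some macrophages, was at 47.9, 50.8, 52.4 and 61.2 CPM in AdGFP and at 58.6, 69.7, 69.3 and 61.4 CPM in AdNAMPT. AdGFP replicates 1 to 3 were the lowest and AdNAMPT replicates 2 and 3 the highest; AdGFP replicate 4 exceeded AdNAMPT replicate 1 in CPM, and on the TMM scale of the test also AdNAMPT replicate 4. AdGFP averaged 53.1 ± 5.75 CPM and AdNAMPT 64.7 ± 5.63 CPM (SD of 4 mice), and limma gave a log2 fold change of 0.22 ± 0.092 (SE), or 1.16-fold with a 95% interval of 1.01 to 1.34, with an unadjusted p of 0.0365 and an adjusted p of 0.492. The difference was thus not significant over all genes, and its unadjusted p was under 0.05 in 10 of the 20 settings tried, with a range of 0.0054 to 0.131 and a log2 fold change between 0.15 and 0.30. Nt5dc2 overlaps exons of Stab1 on the opposite strand. Only reads with 1 possible gene were counted and the strand setting is not stated, so reads of the overlap may be missing from the Stab1 count.

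Stab2 (ENSMUSG00000035459, chr10:86841198-87008025), the hyaluronan clearance receptor whose promoter window is shown beside that of Stab1, was at 92.1, 75.5, 81.4 and 91.1 CPM in AdGFP and at 94.8, 99.0, 78.5 and 91.5 CPM in AdNAMPT. High and low values occurred in both groups, and the log2 fold change was -0.0094 ± 0.093 (limma, adjusted p = 0.986), with a 95% interval of 0.862 to 1.15-fold. Gm16268 overlaps it on the opposite strand. Whether the difference of Stab1 differed from that of Stab2 was not tested. Clec4g (ENSMUSG00000074491, chr8:3707064-3720651), a lectin that binds glycans of activated T cells and viruses, was at 57.7, 38.8, 45.9 and 56.4 CPM in AdGFP and at 52.0, 47.7, 48.3 and 52.2 CPM in AdNAMPT. The 4 AdNAMPT mice lay inside the range of the 4 AdGFP mice, with means of 49.7 ± 8.97 and 50.0 ± 2.37 CPM in AdGFP and AdNAMPT; the log2 fold change on the TMM scale was -0.12 ± 0.11 (adjusted p = 0.767). Gm16553 overlaps Clec4g on the opposite strand.

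Lyve1 (ENSMUSG00000030787, chr7:110850607-110862953), a hyaluronan receptor shared with lymphatic endothelium, varied most between mice. It was at 9.36, 19.0, 21.9 and 12.1 CPM in AdGFP and at 19.6, 18.8, 22.5 and 17.1 CPM in AdNAMPT. AdGFP replicates 1 and 4 were the lowest of all libraries, whereas replicates 2 and 3 were at the level of AdNAMPT. The log2 fold change of 0.34 ± 0.24 was the largest of the members and carried the largest error (limma, unadjusted p = 0.186, adjusted p = 0.700). It was 0.13 without AdGFP replicate 1 (adjusted p = 0.902) and 0.56 without AdGFP replicate 3 (unadjusted p = 0.0171, adjusted p = 0.489). Fcgr2b (ENSMUSG00000026656, chr1:170960558-170976547), also present on B cells and macrophages, was at 31.0, 32.1, 28.3 and 30.2 CPM in AdGFP and at 28.2, 39.4, 32.3 and 30.2 CPM in AdNAMPT. AdNAMPT replicate 2 held the highest value and the other 3 AdNAMPT libraries were close to AdGFP levels, with a log2 fold change of 0.066 ± 0.10 (adjusted p = 0.884). Its sequence resembles that of Fcgr3, and reads that align to both are absent from unique counts, so its level is less certain.

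Kdr and Pecam1, which encode a receptor and a junctional protein of endothelium in general, did not pass the adjusted threshold either. Kdr (ENSMUSG00000062960, chr5:75932827-75978458), the main signalling receptor for VEGF-A, was at 44.9, 47.7, 43.3 and 59.6 CPM in AdGFP and at 43.3, 58.1, 48.1 and 48.9 CPM in AdNAMPT. A single mouse of each group, AdGFP replicate 4 and AdNAMPT replicate 2, stood above the rest, and the log2 fold change was -0.021 ± 0.12 (limma, adjusted p = 0.976). Pecam1 (ENSMUSG00000020717, chr11:106654217-106750628), which encodes the junctional adhesion molecule CD31 and is also carried by platelets, was at 17.6, 19.7, 19.7 and 20.8 CPM in AdGFP and at 22.2, 25.9, 19.5 and 22.3 CPM in AdNAMPT. In CPM, 3 of 4 AdNAMPT mice lay above all AdGFP mice and AdNAMPT replicate 3 lay among them; on the TMM scale of the test, 2 of 4 lay above them, and the log2 fold change was 0.13 ± 0.11 (adjusted p = 0.738).

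Among the secreted products, no difference passed the test either. Bmp2 (ENSMUSG00000027358, chr2:133552159-133562885) was at 8.75, 8.83, 8.0 and 9.87 CPM in AdGFP and at 10.8, 10.9, 9.31 and 9.02 CPM in AdNAMPT. AdNAMPT replicates 1 and 2 were the highest and replicates 3 and 4 fell within the AdGFP range, with a log2 fold change of 0.071 ± 0.11 (limma, adjusted p = 0.884). Dnase1l3 (ENSMUSG00000025279, chr14:7964533-7994573), a nuclease that degrades circulating chromatin, was at 25.1, 27.5, 21.4 and 35.9 CPM in AdGFP and at 31.9, 39.0, 27.2 and 26.8 CPM in AdNAMPT. AdNAMPT replicate 2 and AdGFP replicate 4 were again the highest, and the log2 fold change was 0.13 ± 0.18 (adjusted p = 0.860). Oit3 (ENSMUSG00000009654, chr10:59422958-59441778) was at 23.4, 29.1, 27.6 and 31.9 CPM in AdGFP and at 24.1, 31.5, 34.2 and 31.2 CPM in AdNAMPT. Replicate 1 of each group was low for Oit3, and the log2 fold change was 0.079 ± 0.115 (adjusted p = 0.871).

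The members differed in how much they varied between mice of the same group. The within-group SD of log2 TMM-scaled CPM was 0.42 for Lyve1, above that of 89.6% of tested genes, 0.29 for Dnase1l3 and 0.13 for Bmp2, the lowest of the members, against a median of 0.18 over tested genes. The highest library exceeded the lowest by 2.4-fold in CPM for Lyve1, by 1.82-fold for Dnase1l3 and by 1.31-fold for Stab2, the smallest such ratio among the members. Summed over the 10 genes, which weights the abundant Stab2 most, the 4 AdGFP mice gave 358, 349, 350 and 409 CPM, and the 4 AdNAMPT mice 385, 440, 389 and 391 CPM. In each group 1 mouse stood above the other 3, AdGFP replicate 4 and AdNAMPT replicate 2, and AdGFP averaged 366 ± 28.7 CPM against 401 ± 25.9 CPM for AdNAMPT (SD of 4 mice). On the TMM scale the sums of AdGFP mice became 375, 379, 366 and 427 CPM and those of AdNAMPT mice 373, 440, 376 and 390 CPM, and AdNAMPT replicate 2 was the highest of the 8 libraries for 6 of the 10 members and the lowest for 0.

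**Figure D3:**
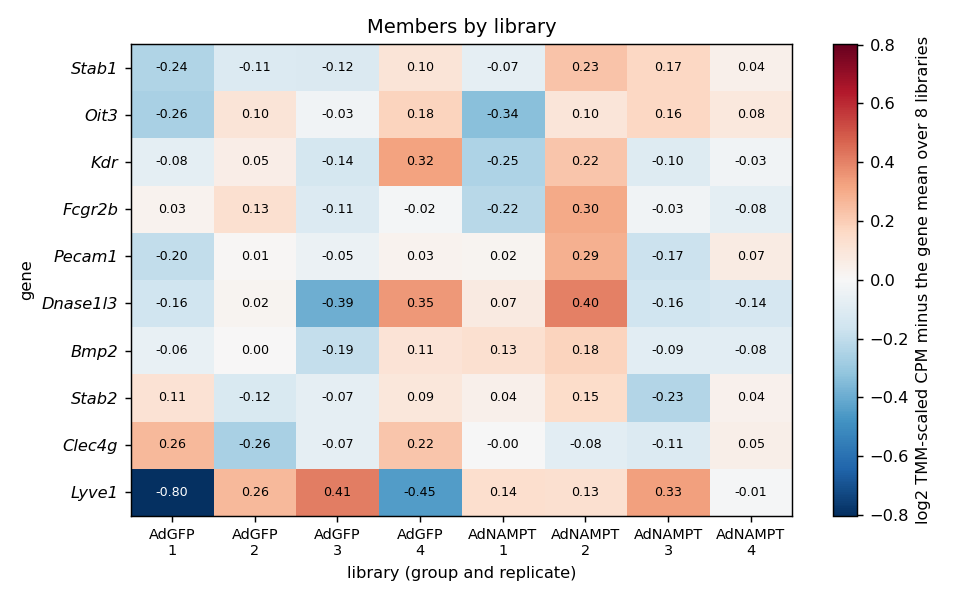
Log2 TMM-scaled CPM of each member (rows) in each library (columns, group and replicate), minus the mean of that gene over the 8 libraries, with the difference printed in each cell. AdNAMPT replicate 2 is above the mean for all members but Clec4g, and Lyve1 runs from -0.80 in AdGFP replicate 1 to 0.41 in AdGFP replicate 3.

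The members were then compared with each other across the 8 livers on log2 TMM-scaled CPM, over 45 pairs. Pearson's r was positive in 32 of the 45 pairs, with a median of 0.37. The 2 values of a pair share a library, with its depth and scaling. Dnase1l3 and Bmp2 gave the highest r, 0.94 (exact two-sided permutation p = 0.000521, Benjamini-Hochberg adjusted over 45 pairs 0.0234), the only pair with an adjusted p of at most 0.05. Spearman's rho of this pair was 0.95 (exact permutation p = 0.00114, adjusted 0.0513), and by rho 0 of the 45 pairs passed. Without the 2 libraries farthest from the median of Dnase1l3, r was 0.94, within AdGFP it was 0.99 and within AdNAMPT 0.92 (4 mice each, no test), and with library-size scaling it was 0.91. The same mice, AdGFP replicate 4 and AdNAMPT replicates 1 and 2, were therefore high for the nuclease and for the BMP ligand.

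Lyve1 and Clec4g were the most inversely related pair. Where Lyve1 was low, in AdGFP replicates 1 and 4, Clec4g was at its highest, and r was -0.89 (exact two-sided permutation p = 0.00308, adjusted 0.0692); Spearman's rho was -0.79 (exact permutation p = 0.0279, adjusted 0.412). The relation did not pass after adjustment and rested in part on those mice: without the 2 libraries farthest from the median of Lyve1, r was -0.55, and with library-size scaling of all 8 libraries it was -0.68. Within the groups r was -0.90 in AdGFP and -0.86 in AdNAMPT, with 4 mice each and no test. Kdr and Dnase1l3 were the remaining pair with an unadjusted exact permutation p under 0.05 by r (r = 0.75, p = 0.0320, adjusted 0.399), but r was 0.037 without the 2 libraries farthest from the median of Kdr.

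**Figure D4:**
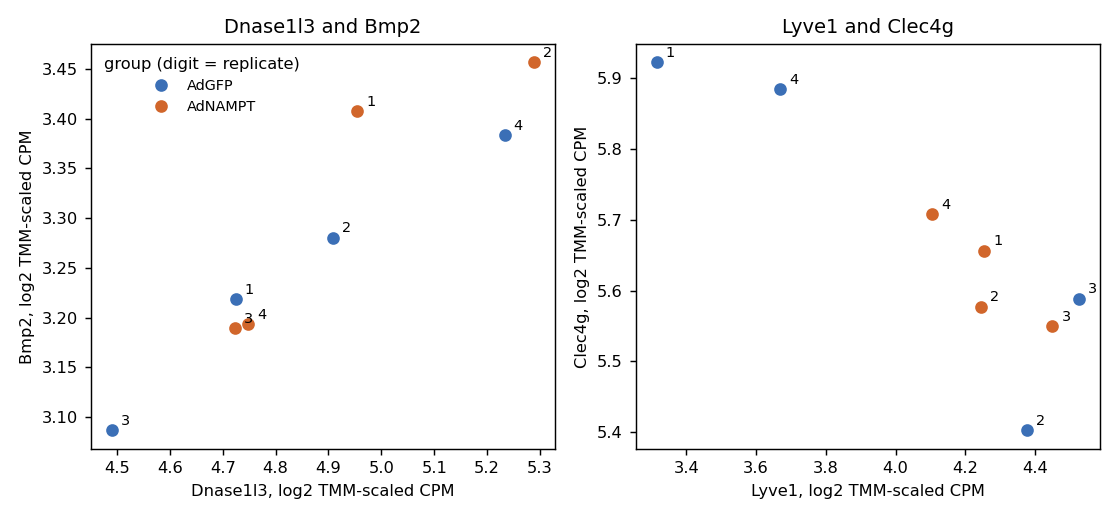
Log2 TMM-scaled CPM of Dnase1l3 against Bmp2 (left) and of Lyve1 against Clec4g (right), with 1 point per library coloured by group and numbered by replicate. The left panel runs upwards (r = 0.94) and the right panel downwards (r = -0.89), and AdGFP replicates 1 and 4 set the upper left corner of the right panel.

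Genes that followed the members as a set were sought by correlation with the mean of the standardised members over the 8 libraries; since they were picked as the highest of all tested genes, no p is given. The member mean itself followed Dnase1l3 (r = 0.90), Kdr (r = 0.86) and Pecam1 (r = 0.82), each of which is part of it, whereas Clec4g (r = 0.018) and Lyve1 (r = -0.075) did not follow it. The 10 genes outside the set with the highest r were Fras1 (r = 0.96), Slc36a4, Ptdss1, Srsf5, Pip5k1a, Lrrc61, Heph, Cd300lg, Nlgn2 and Rasgrp3, with r between 0.88 and 0.96. Cd300lg encodes an endothelial receptor and Heph a copper-dependent ferroxidase, and 0 of the 10 genes were in the endothelial lists. The choice was not stable: 6 of the 10 were again among the highest with library-size CPM, 3 without AdNAMPT replicate 1 and 1 by Spearman rank. Of 58 other endothelial genes tested, 51 had a positive r with the member mean, with a median of 0.31, against 50.2% positive and a median of 0.0023 over all tested genes.

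The wider endothelial programme held 0 genes called by limma among these 58, against 0.277% of all tested genes. Of the 58, 34 were higher and 24 lower, with a median log2 fold change of 0.056, against 50.4% of all tested genes higher. An unadjusted p under 0.05 in limma was reached by 6 of the higher and 2 of the lower genes. Over all tested genes the shares were 4.65% higher and 5.04% lower. With library size only, 47 were higher and 11 lower, with a median of 0.14, against 71.8% of all tested genes higher. Of 20 further sinusoidal genes, 19 were tested, 8 higher and 11 lower, with a median of -0.028; with library size only, 14 were higher and 5 lower. Gata4, a transcription factor that maintains sinusoidal identity, was at 7.87 ± 0.782 CPM in AdGFP and 11.2 ± 1.83 CPM in AdNAMPT (log2 fold change 0.39, unadjusted p = 0.0108, adjusted p = 0.412). Rspo3, a Wnt enhancer secreted by central vein endothelium, was at 5.18 ± 0.753 and 4.54 ± 0.815 CPM (log2 fold change -0.37, adjusted p = 0.492), and Ehd3, an endocytic trafficking protein, had a log2 fold change of -0.26 (adjusted p = 0.541). Of 26 pan-endothelial genes, 25 were tested, 16 higher and 9 lower, with a median of 0.073; with library size only, 22 were higher and 3 lower, with a median of 0.15.

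Egfl7, a secreted endothelial matrix protein, had the smallest p of the pan-endothelial list, at 18.3 ± 2.03 CPM in AdGFP and 26.1 ± 3.42 CPM in AdNAMPT (log2 fold change 0.45 ± 0.10, unadjusted p = 0.00118, adjusted p = 0.198). The guidance receptor Robo4 (log2 fold change 0.39, adjusted p = 0.357) and the transcription factor Sox18 (0.44, adjusted p = 0.447) followed it. Among 14 tested genes of large vessels and capillarisation, 10 were higher and 4 lower, with a median of 0.11 (11 and 3 with library size only); the basement membrane collagen gene Col4a1 had a log2 fold change of 0.29 (adjusted p = 0.492), Ly6c1 of 0.76 (adjusted p = 0.514) and Plvap, a component of fenestral diaphragms, of -0.21 (adjusted p = 0.557). No gene of this list passed the adjusted threshold, with 2 at an unadjusted p under 0.05.

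Ligands and partners of the members were also read as pathways. In a list of VEGF and angiopoietin signalling genes that includes Kdr, 13 genes were tested, 9 higher and 4 lower, with a median of 0.027 and 0 called. With library size only, 12 were higher and 1 lower, with a median of 0.11. The ligands Vegfa (log2 fold change 0.19, adjusted p = 0.640) and Vegfb (0.25, adjusted p = 0.571) and the lipase inhibitor Angptl4 (-0.33, adjusted p = 0.629) had the smallest p of this list. For the BMP and iron pathway of Bmp2, 23 genes were tested, 14 higher and 9 lower, with a median of 0.053 and 0 called; with library size only, 19 were higher and 4 lower, with a median of 0.14. Hfe2, which encodes the BMP co-receptor hemojuvelin, had a log2 fold change of 0.23 (unadjusted p = 0.0241, adjusted p = 0.465), and the BMP target genes Smad6 (0.37, adjusted p = 0.527) and Id1 (0.70, adjusted p = 0.577) were not separated from 0 either. Among 15 scavenger receptors, Stab1, Stab2 and Lyve1 included, 9 were higher and 6 lower, with a median of 0.041 and 0 called (11 and 4 with library size only). Cd163, the haemoglobin scavenger of macrophages, had a log2 fold change of -1.32 ± 0.32 (unadjusted p = 0.00160, adjusted p = 0.225).

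**Figure D5:**
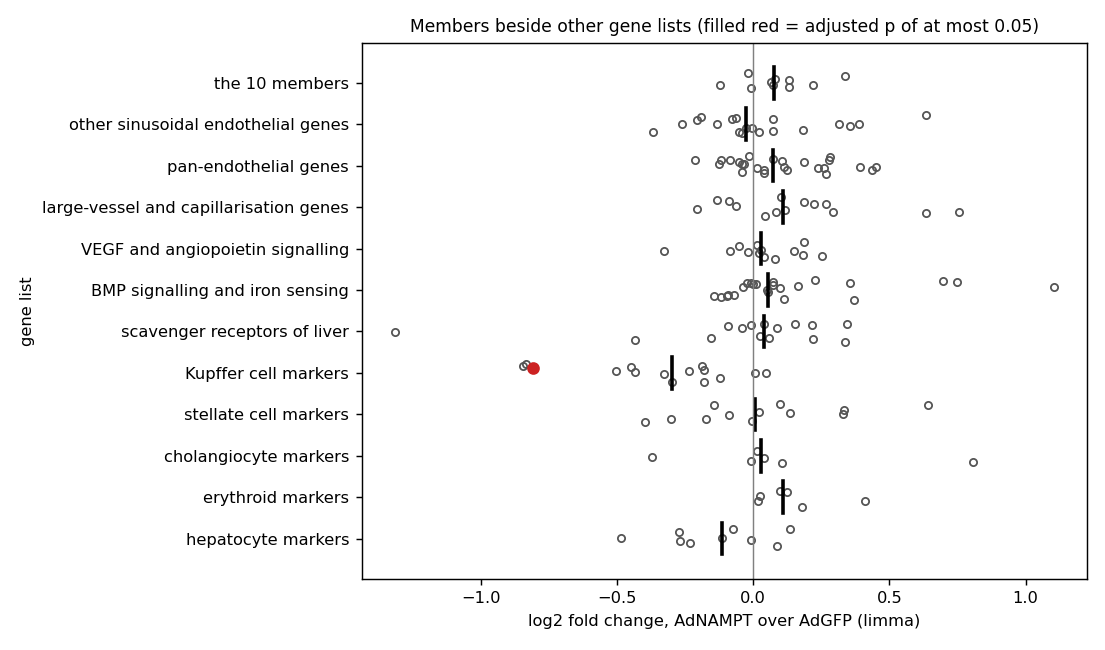
Log2 fold change, AdNAMPT over AdGFP (x axis, limma), of each tested gene (points) by list (y axis), with a vertical bar at the median of the list. The lists of T and NK cells, B cells and platelets are not drawn. The 10 members lie between -0.12 and 0.34, and the filled point is Fcna, the only listed gene with an adjusted p of at most 0.05.

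Markers of the other liver cells were read in the same libraries, since several members are also expressed outside endothelium. Kupffer cell markers were lower in AdNAMPT for 13 of 15 genes, with a median of -0.30 (also 13 of 15 with library size only, with a median of -0.22), and 1, Fcna, a ficolin of Kupffer cells, passed the test (29.0 ± 3.01 and 18.3 ± 1.17 CPM in AdGFP and AdNAMPT, log2 fold change -0.81 ± 0.084, adjusted p = 0.000824). Over all tested genes 50.4% were higher. The summed level of the Kupffer markers ranged from 481 to 587 CPM in AdGFP and from 414 to 563 CPM in AdNAMPT. Their most abundant genes were Slc40a1 and Cd5l. The median of their log2 TMM-scaled CPM, each minus its mean over the 8 libraries, was 0.090, 0.26, 0.34 and 0.038 in AdGFP. In AdNAMPT it was -0.40, -0.39, -0.031 and 0.17. Replicates 1 and 2 of AdNAMPT were thus the lowest, and replicate 4 lay within the AdGFP range. The part of macrophages in the values of Fcgr2b and Stab1 was not tested. Stellate markers were 6 higher and 6 lower (7 and 5 with library size only; median 0.0075; Pdgfrb 0.33, Col1a1 0.64 and Rgs5 -0.40, with adjusted p from 0.361 to 0.453), and hepatocyte markers 2 higher and 7 lower (4 and 5 with library size only; median -0.11; Pck1 -0.49, Cps1 -0.27, Cyp2e1 -0.27), with summed levels of 475 to 530 CPM and 107408 to 136510 CPM over the 8 libraries and 0 called in either. The 6 erythroid markers were all higher (median 0.11), 4 of 6 cholangiocyte markers were higher (5 of 6 with library size only; median 0.027), and 1 of 3 platelet markers was higher (3 of 3 with library size only; median -0.043), with 0 called. Of 8 T and NK cell markers and 6 B cell markers, 1 each passed the filter, Gzma (-0.17) and Ighm (0.45), with summed levels of at most 7.01 and 5.79 CPM. The 7 T and NK cell markers and 5 B cell markers under the filter all had a higher mean CPM in AdNAMPT. These means carry no TMM factor, and with library size only 71.8% of all tested genes were higher. Some rested on few reads, such as 0 to 7 per library for Cd3d and 0 to 4 for Klrb1c, and the differences were not tested. The summed T and NK level was 3.57 ± 0.945 CPM in AdGFP and 4.84 ± 1.78 CPM in AdNAMPT, with overlapping ranges. No marker of any list was at 0 in all libraries. Log2 fold changes of the genes with the smallest p in these lists were 0.41 for Slc4a1, 0.18 for Hba-a1 and 0.097 for Alas2 (erythroid), 0.81 for Sox9, -0.37 for Krt19 and 0.10 for Krt7 (cholangiocyte), and -0.075 for Itga2b, 0.13 for Pf4 and -0.043 for Ppbp (platelet), with no adjusted p under the threshold.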

How the data were processed

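Liver RNA of 4 AdGFP and 4 AdNAMPT db/db mice was measured by RNA-seq, 1 mouse per library, grouped by sample title. The authors aligned single 50-base reads with STAR (2.4.0b in the submitters' processing notes; the study's methods give another version) to GRCm38 (Ensembl release 76); featureCounts 1.4.5 then assigned reads with 1 alignment and 1 possible gene. A kit for depleting ribosomal RNA is named in the labels, whereas the methods describe poly-A selection; the strand setting of the counting is not given in the sources used here. The counts deposited are unscaled whole reads. Deposited CPM are scaled to the total of their own library with no TMM factor, and deposited RPKM are CPM per kilobase of exons; both were recomputed and matched. Symbols and biotypes came from GENCODE M21, which matched 40340 of 41388 features; coordinates are those deposited.

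Following the study's methods, 355 ribosomal RNA features and genes not over 1 CPM in at least 3 libraries (2 where a library was left out) were removed, and 12270 genes were fitted with TMM factors and limma 3.58.1 (voomWithQualityWeights, lmFit, eBayes; group as the only term), with Benjamini-Hochberg adjusted p-values over all genes and a threshold of 0.05. Log2 fold changes are AdNAMPT over AdGFP; errors are SE, intervals 95% confidence intervals. The limma p-values set the difference between groups against the spread between mice of a group. Correlations used log2 TMM-scaled CPM (prior count 2) and exact permutation over 40320 orders. The members and the 14 other gene lists were chosen with earlier results of these data known, so lists are described by counts and medians without a test. Named from each list were genes past the adjusted threshold, otherwise up to 3 with the smallest unadjusted p, besides the members, Nampt, the 10 genes most like the member mean and the most abundant genes of lists of other cells. A gene that this rule names is not reported here. Alternatives were edgeR 4.0.16 quasi-likelihood, DESeq2 1.42.0, voom without sample weights, other scalings and filters, a replicate block, a GC correction (lowess span 0.3), thinning to the smallest library and each library left out. The fits were tested on simulated counts with changes larger than the estimate of any member. That check does not show whether differences as small as those of the members would be found. A same-number pairing of mice was checked by the correlation of deviations from group means. That check could not decide it, and the main fit used no pairing. Promoter sequences are RefSeq's (GRCm38.p6). Code ran in R 4.3.3 and Python 3.11.15, with scipy 1.17.1 for ranks, numpy 2.4.6 and pandas 2.3.3 for tables, and matplotlib 3.10.9 for plots. The floor of 3 counts covers counting error only.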

Additional observations from a re-analysis of the deposited data

Results flagged for a closer look

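The summed level of the 10 members put 1 mouse of each group apart from its 3 group mates. In AdGFP, replicate 4 was at 409 CPM while the others were between 349 and 358 CPM. In AdNAMPT, replicate 2 was at 440 CPM while the others were between 385 and 391 CPM. The gap to the nearest group mate was 0.852 and 0.906 of the group's whole range, above Dixon's 95% critical value for 4 values. On TMM-scaled sums the same mice were highest, but the gaps were 0.784 and 0.741 of the range, both under that value. Fcna was at 24.6 CPM in AdGFP replicate 2, below the 30.0 to 31.1 CPM of the other AdGFP mice, with a gap of 0.842 of the range. Over 94 groups of 4 values examined, 3 such outliers were found, and chance gives about 4.7 at 1 in 20.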

How the results depend on the processing

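No member passed the adjusted threshold under any of the 19 alternatives run. Of 190 member fold changes under these alternatives, 171 kept their direction and 19 changed sign. Stab2 became 0.077 and Kdr 0.068 with library size only, Stab2 0.0016 with GC correction and Kdr 0.0092 with thinned counts. Fcgr2b became -0.0014 with edgeR and -0.0093 without sample weights. With each library left out in turn, log2 fold changes ranged from 0.15 to 0.30 for Stab1, 0.13 to 0.56 for Lyve1, -0.18 to -0.059 for Clec4g, -0.13 to 0.092 for Stab2, -0.13 to 0.0899 for Kdr, -0.025 to 0.16 for Oit3, -0.072 to 0.31 for Dnase1l3, -0.014 to 0.27 for Pecam1, -0.061 to 0.17 for Fcgr2b and -0.024 to 0.16 for Bmp2. The median of the members ranged from -0.042 without AdNAMPT replicate 2 to 0.17 without AdNAMPT replicate 3; those without AdGFP replicates 3 and 4 and AdNAMPT replicate 4 were 0.014, 0.14 and 0.15. The cause of these changes was not tested.

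Of 684 fold changes of other named genes, 21 changed sign. Ppbp became 0.053 with edgeR, 0.0503 with DESeq2, 0.0045 without sample weights, 0.028 with library size only, 0.11 with the replicate block and 0.13 with GC correction and the block; Itga2b became 0.0076 with library size only, and Krt7 -0.014 with GC correction and the block. With each library left out in turn, Nampt ranged from -0.079 to 0.27, Krt7 from -0.10 to 0.25, Ppbp from -0.36 to 0.28, Gzma from -0.44 to 0.076, Pf4 from -0.13 to 0.24, Hba-a1 from -0.094 to 0.36 and Alas2 from -0.0053 to 0.17.

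The 34 genes changed over the whole table became 75 with DESeq2, and 28 to 38 with a library left out. In the Kupffer list, 1 changed gene became 2 with DESeq2, and 1 to 2 with a library left out. The split of changed genes was 2 higher and 32 lower, against 8 and 31 with library size only. Of the 10 genes most like the members, 6 were shared with library-size CPM, 1 with Spearman rank and 3 without AdNAMPT replicate 1. Correlations of same-numbered mice were 0.225, -0.0451, 0.213 and 0.00516, and those of differently numbered mice ranged from -0.301 to 0.239. So few correlations can neither show nor exclude a pairing by number. With the replicate block 41 genes changed, 0 of them members, and the members' median was 0.039.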
